A study of Homo sapiens with 4 samples.

Results

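PRRC2A, PRRC2B and PRRC2C are the human genes of a family that encodes very large, proline-rich coiled-coil proteins, and their messages were followed here in RNA released into the culture medium by HEK293T cells, a human embryonic kidney line. The genes were found by symbol in the authors' table and matched to the count table by gene ID. Each symbol had a single ID, so the family is 3 of 61543 genes. The family was selected on the fold changes between the groups in these same libraries, which were already known. Levels and fold changes of the 3 genes are therefore given as a description, without a test.

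The series holds 4 libraries of total RNA from cleared, filtered supernatant, 2 from cells releasing EPN24-Cas13d and 2 from cells releasing EPN24. EPN24 is a protein that forms secreted nanocages, and EPN24-Cas13d joins it to Cas13d, a CRISPR protein directed to RNA by a guide. All 4 libraries come from the same cell line, and the same amount of ERCC spike-in, a mix of synthetic RNAs, was added to equal volumes of medium before extraction. The labels name no guide RNA for Cas13d, no way in which the proteins were expressed and no separate cultures, so the spread between libraries may be technical. The question is how the RNA found in the medium differs when the secreted cage carries Cas13d. No step in the labels separates caged RNA from free RNA, and a difference in the number of cells or cages and one in RNA per cell or cage cannot be told apart.

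PRRC2 proteins are found with the translation initiation machinery on the small ribosomal subunit. In human cells they bind the initiation scaffold eIF4G2 and subunits of eIF3, and they help scanning ribosomes to pass upstream start codons and reach the main one. PRRC2A, known earlier as BAT2, has also been described as a reader of the m6A mark on RNA, and PRRC2C takes part in the formation of stress granules, assemblies of stalled messages and RNA-binding proteins.

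Depth came to 5097332 and 4863449 counts on genes in EPN24-Cas13d, against 1830860 and 1903492 in EPN24. Levels are given below as CPM after TMM scaling, a method that centres the libraries on one another. A floor of 3 counts in a library equals 0.721 to 0.755 CPM in EPN24-Cas13d and 1.34 to 1.42 CPM in EPN24 and covers counting error only, since PCR copies are not independent molecules. Of the whole counts above 0, 66.8% to 72.4% per library were even, so single counts may not be independent. The floor does not cover this, and its source was not tested. Of 6 genes known from HEK293 cells, all had counts in every library, with a summed level of 3119 to 3202 CPM in EPN24-Cas13d and 378 to 397 CPM in EPN24. VIM, IGF2BP1 and NEFL were higher in both EPN24-Cas13d libraries than in both EPN24 libraries, VIM and IGF2BP1 carrying most of the sum there, and NEFM, PAX2 and LIN28B were lower. The 3 blood markers summed to 1.01 to 1.92 CPM in EPN24-Cas13d and 7.58 to 8.05 CPM in EPN24, with the globin gene HBA1 at 0 counts in all 4 libraries and HBB at 0 in 3 of them. The 3 liver markers summed to 1.44 to 2.52 CPM in EPN24-Cas13d and 9.81 to 12.3 CPM in EPN24, and their part in the results was not tested. Over 370 olfactory receptor genes, taken as a gauge of background, there were 0.140 to 0.175 counts per kb in EPN24-Cas13d and 1.42 to 1.83 in EPN24. Genes with any count numbered 25266 to 25778 in EPN24-Cas13d and 39533 to 41606 in EPN24. Low counts in EPN24 may therefore hold background, and its share in them was not tested.

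The 3 genes lie on different chromosomes, all on the plus strand of GRCh38. PRRC2A (ENSG00000204469.13) spans chromosome 6 from 31620715 to 31637771, in the class III region of the MHC, and PRRC2B (ENSG00000288701.1) spans chromosome 9 from 131373636 to 131500197. PRRC2C (ENSG00000117523.18) spans chromosome 1 from 171485530 to 171593511. The exons add up to 9120 bp in PRRC2A, 12429 bp in PRRC2B and 14189 bp in PRRC2C. In GENCODE 29 the longest complete coding sequences hold 2157, 2229 and 2819 codons, and each is longer than that of at least 98.0% of coding genes.

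The coding sequences differ in base composition. At the third codon position, where most base changes leave the encoded amino acid as it is, the share of G or C, called GC3 below, was 53.9% in PRRC2A, 65.1% in PRRC2B and 32.4% in PRRC2C, against a median of 60.7% over 19653 coding genes. PRRC2C lay above only 3.13% of coding genes in this share. Over the longest transcript the GC content was 61.7%, 56.6% and 45.3% for the 3 genes. The most similar in-frame window of 120 bases is shown because it lets the lower share in PRRC2C be read off directly. Many of its codons are alike in their first bases and different in the last. Capitals mark G or C at the third codon position. The windows are coding bases 103 to 222 of PRRC2A (chr6:31622892-31623841, + strand), 106 to 225 of PRRC2B (chr9:131430250-131432726, + strand) and 103 to 222 of PRRC2C (chr1:171512191-171513104, + strand), each joined across an intron.
PRRC2A: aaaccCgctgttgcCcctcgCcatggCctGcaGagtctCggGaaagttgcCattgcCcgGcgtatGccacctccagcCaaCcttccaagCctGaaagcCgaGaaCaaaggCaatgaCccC
PRRC2B: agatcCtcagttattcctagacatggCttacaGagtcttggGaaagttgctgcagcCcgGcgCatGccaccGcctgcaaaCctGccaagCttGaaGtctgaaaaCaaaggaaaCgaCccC
PRRC2C: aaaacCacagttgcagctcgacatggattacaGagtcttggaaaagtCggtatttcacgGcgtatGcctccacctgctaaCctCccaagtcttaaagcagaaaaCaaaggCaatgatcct
Of these 120 bases 80 are the same in all 3 genes. G or C stands at the third position in 22 of 40 codons in PRRC2A, 18 in PRRC2B and 9 in PRRC2C. Here PRRC2A lies above PRRC2B, the reverse of their order in GC3. In the 28 codons of the window with the same first bases in all 3 genes, the numbers are 14, 15 and 8. Over the whole alignment, 283 aligned codons have the same first bases in all 3 genes, with G or C at the third position in 56.5% of them in PRRC2A, 64.7% in PRRC2B and 29.7% in PRRC2C. The longest run of identical bases between the transcripts was 17 for PRRC2A and PRRC2B, 19 for PRRC2A and PRRC2C, and 14 for PRRC2B and PRRC2C, all much shorter than the reads of 150 nt.

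PRRC2A and PRRC2B had far more counts in the EPN24-Cas13d libraries than in the EPN24 libraries, and PRRC2C did not. PRRC2A had 17537 and 15754 counts in the EPN24-Cas13d libraries, against 335 and 358.5 in the EPN24 libraries. PRRC2B had 17067.5 and 15827.5 counts with Cas13d, against 368 and 350 without it. PRRC2C had 408 and 333 counts with Cas13d, against 309 and 392 without it. In the EPN24 libraries the 3 messages thus had much the same counts, while in the EPN24-Cas13d libraries PRRC2A and PRRC2B stood far above PRRC2C. Within each group the replicates lay close together, and only for PRRC2C do the raw counts of the groups overlap.

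On the CPM scale PRRC2A averaged 4090.3 ± 177 in EPN24-Cas13d and 159 ± 14.2 in EPN24 (SD, n = 2 each), 25.7 times the EPN24 level. The fitted log2 fold change of EPN24-Cas13d over EPN24 was 4.68 with an approximate standard error of 0.11. PRRC2B averaged 4043 ± 84.2 CPM in EPN24-Cas13d and 165 ± 1.10 CPM in EPN24 (SD, n = 2 each), a log2 fold change of 4.62 with a standard error of 0.11. PRRC2C averaged 90.9 ± 10.1 CPM in EPN24-Cas13d and 162 ± 33.8 CPM in EPN24 (SD, n = 2 each), a log2 fold change of -0.83 with a standard error of 0.16, and of -1.69 to -0.47 under other filters or with background subtracted. Its 2 EPN24-Cas13d libraries, at 98.1 and 83.8 CPM, lay below both EPN24 libraries, at 138 and 186 CPM. A gene is called here when its Benjamini-Hochberg adjusted p, by the quasi-likelihood test of edgeR, is under 0.05 among 20476 tested genes, and 80.9% of them are. Of all tested genes 32.6% were called higher and 48.2% lower. PRRC2A and PRRC2B lie on the higher side and PRRC2C on the lower, which is no evidence about them, since these fold changes chose the family. In rank of log2 fold change PRRC2A was at 279 and PRRC2B at 302 of 20476 genes, while PRRC2C lay at the 51.3 percentile, near the middle of all tested genes (median -0.96).

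**Figure D1:**
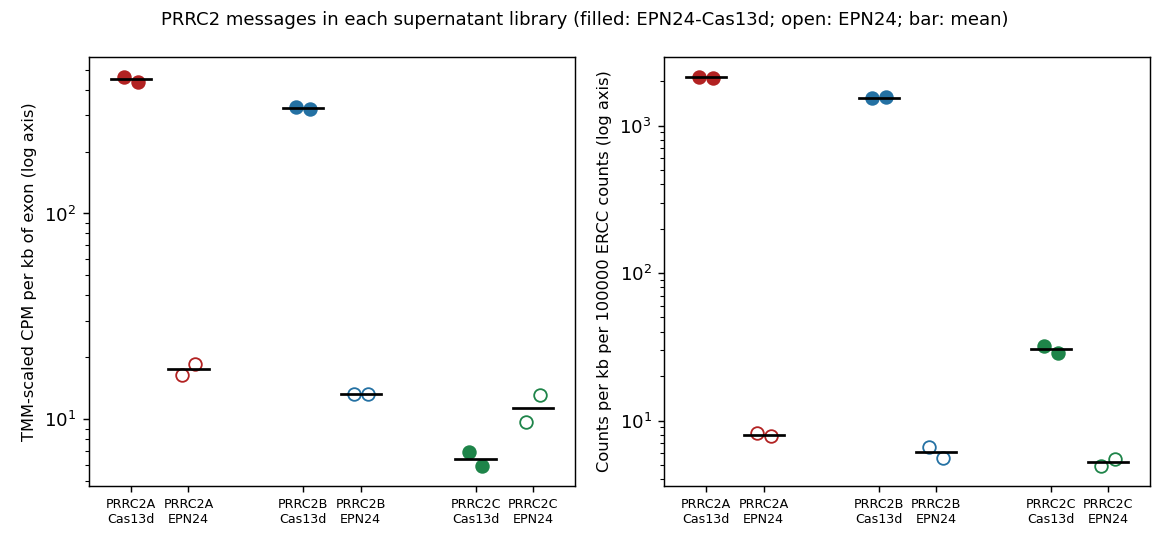
Level of each PRRC2 message in each library on log axes, with EPN24-Cas13d libraries as filled points left of the open EPN24 points and bars at group means. In TMM-scaled CPM per kb of exon (left) PRRC2A and PRRC2B stand near 448 and 325 with Cas13d and PRRC2C near 6.41, and in counts per kb per 100000 ERCC counts (right) all 3 messages are higher with Cas13d.

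Divided by exon length, the order of the messages was the same in both groups but their distances were not. Per kb, PRRC2A averaged 448 ± 19.4 CPM, PRRC2B 325 ± 6.78 CPM and PRRC2C 6.41 ± 0.711 CPM in EPN24-Cas13d (SD, n = 2). In EPN24 the same levels were 17.5 ± 1.56, 13.3 ± 0.0886 and 11.4 ± 2.38 CPM per kb (SD, n = 2), so PRRC2B and PRRC2C did not differ there beyond their spread. In EPN24-Cas13d no 2 of the 3 messages overlapped. By CPM per kb among tested genes, PRRC2A ranked 39 and 41 in the EPN24-Cas13d libraries, against 614 and 577 in the EPN24 libraries. PRRC2B ranked 63 and 70 with Cas13d, against 811 and 878 without it. PRRC2C ranked 5856 and 6239 with Cas13d, against 1210 and 901 without it.

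Ratios between the messages within a library do not depend on how libraries are scaled. Per kb, PRRC2A stood 66.9 and 73.6 times above PRRC2C in the EPN24-Cas13d libraries, against 1.69 and 1.42 times in the EPN24 libraries. PRRC2B stood 47.8 and 54.3 times above PRRC2C with Cas13d, against 1.36 and 1.02 times without it. The ratio of PRRC2A to PRRC2B moved little, at 1.40 and 1.36 with Cas13d and 1.24 and 1.39 without it. Averaged over the libraries, the PRRC2A to PRRC2C ratio was 45.2 times as large in EPN24-Cas13d as in EPN24, and the PRRC2A to PRRC2B ratio 1.05 times. Of the counts on the 3 genes, not divided by length, PRRC2C took 1.17% and 1.04% in the EPN24-Cas13d libraries, against 30.5% and 35.6% in the EPN24 libraries.

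**Figure D2:**
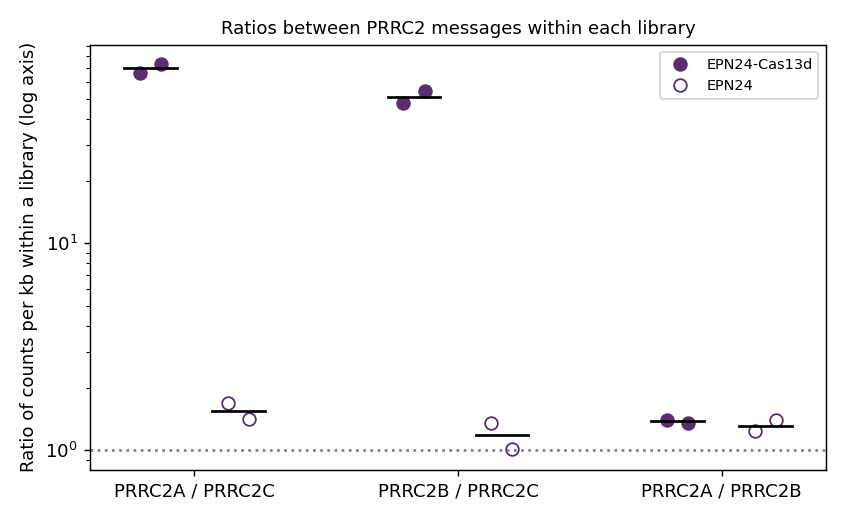
Ratio of counts per kb between pairs of PRRC2 messages within each library, on a log axis, with EPN24-Cas13d libraries filled and EPN24 libraries open and bars at group means. Both ratios to PRRC2C lie between 47.8 and 73.6 with Cas13d and between 1.02 and 1.69 without it, while PRRC2A over PRRC2B stays between 1.24 and 1.40 in all 4 libraries.

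Against the ERCC spike-in, which sets libraries on the same volume of medium, all 3 messages were more abundant in EPN24-Cas13d supernatant. PRRC2A gave 19575 and 19201 counts per 100000 ERCC counts in the EPN24-Cas13d libraries, against 75.3 and 71.3 in the EPN24 libraries, a ratio of group means of 265. PRRC2B gave 19051 and 19290.3 with Cas13d, against 82.7 and 69.6 without it, a ratio of 252. PRRC2C gave 455 and 406 with Cas13d, against 69.4 and 78.0 without it, a ratio of 5.84. For each message the 2 libraries of a group lay close together and the groups did not overlap. Over all tested genes the median fold change on the log2 scale was 2.38 with ERCC scaling and -0.96 with TMM scaling, a shift of 3.34. The fold changes of the members with ERCC scaling were 8.05, 7.98 and 2.55. There 58.4% of all tested genes were called higher and 2.33% lower. The sign for PRRC2C thus turns with the scaling. Its place near the median, at the 51.5 percentile, is kept because scaling shifts all genes nearly alike. Under other processing that place moved. PRRC2C lay below the median of tested genes with a stricter count filter (-1.69 against 0.015) and with background subtracted (-1.69 against -0.12). With counts halved it also lay below (-1.22 against -0.35). It lay above the median without a filter (-0.47 against -2.55) and with either GC trend removed. The authors' deposited table lists log2 fold changes of 8.01 for PRRC2A, 7.94 for PRRC2B and 2.52 for PRRC2C, values close to those with ERCC scaling.

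The genes most like each member were taken as the 3 with the smallest root mean square difference over the 4 libraries in log2 CPM per kb, among 17659 tested genes with a symbol. For PRRC2A these were ZNF768, a zinc finger gene (0.19), FASN, fatty acid synthase (0.22), and KHSRP, an RNA-binding splicing and decay factor (0.23). For PRRC2B they were LMNB2, a nuclear lamin (0.11), DDIT4, an inhibitor of mTORC1 signalling (0.12), and USP22, a deubiquitinase (0.21). For PRRC2C they were IP6K2, an inositol hexakisphosphate kinase (0.10), TLE4, a transcription corepressor (0.11), and CBX1, a heterochromatin protein (0.17). The difference between PRRC2A and PRRC2B was 0.43, and PRRC2C was 4.35 from PRRC2A and 4.01 from PRRC2B, so each member had other genes nearer to it than either paralog. The log2 fold changes of the 6 genes nearest to PRRC2A and PRRC2B lay between 4.38 and 4.79, and those of the 3 nearest to PRRC2C between -0.67 and -0.65. Values near those of the members follow from choosing these genes by their levels in the same libraries.

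Other annotated genes lie inside the PRRC2A and PRRC2B loci, and those that share exons with the member had higher counts where it did. ENSG00000289282, annotated as coding, lies with all 393 bp of its exons in PRRC2A exons and had 1086.5 and 1009.5 counts in EPN24-Cas13d, against 31 and 34.5 in EPN24. ENSG00000288841 lies with all 429 bp in PRRC2B exons and had 554.5 and 424 counts with Cas13d, against 9 and 12 without it. ENSG00000176868, an annotated lncRNA on the opposite strand (chromosome 9, 131497479 to 131500191), lies with all 2713 bp inside PRRC2B exons. It had 1141 and 1041.5 counts with Cas13d, against 12 and 20 without it. The strand setting of the counting is not given in the sources used here, so reads of these genes and of PRRC2A or PRRC2B cannot be told apart. The counts of each amount to between 2.92% and 9.44% of those of the member in either group.

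Most small RNA genes within PRRC2A and PRRC2B had too few counts to be compared. SNORA38, a snoRNA in a PRRC2A intron, had 0 and 0 counts in EPN24-Cas13d, against 0 and 2 in EPN24, and the microRNA gene MIR6832 had 2.5 and 0.5 with Cas13d, against 0 and 4 without it. SNORA38 (chromosome 6, 31623079 to 31623210) lies in the intron that splits the PRRC2A window printed above. Of the 2 snoRNA genes in PRRC2B introns, SNORD62A had 0 and 2 counts with Cas13d, against 1 and 0 without it. SNORD62B had 43 and 28 counts with Cas13d, against 4 and 1 without it. All but SNORD62B stayed at or under 4 counts in every library, near the floor of 3 counts, so no difference was detectable for them at this depth. No other row of the count table overlapped PRRC2C.

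The base composition of the members moved with their fold changes, as it did across genes. Over 15432 tested coding genes, the rank correlation between transcript GC content and log2 fold change was 0.50, and over 15244 genes it was 0.43 for GC3. These are descriptions across genes of the same 4 libraries, and genes are not independent replicates. With coding genes split into deciles of transcript GC, the median fold change was -3.02 in decile 1 and 2.18 in decile 10 on the log2 scale. PRRC2C lay in decile 4, whose median was -0.80, close to its own -0.83. PRRC2B lay in decile 8, with a median of 1.34, and PRRC2A in decile 9, with a median of 1.69, and their fold changes stood above 98.3% and 97.6% of the genes there.

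By GC3 all 3 messages stood above the median of genes of like composition. PRRC2C lay in decile 1 of GC3, whose median log2 fold change was -2.74, and stood above 87.1% of its genes. PRRC2A lay in decile 4, with a median of -0.88, and stood above 99.9% of its genes, and PRRC2B lay in decile 6, with a median of 0.52, and stood above 99.3%. With the trend on transcript GC removed, the log2 fold changes were 2.59 for PRRC2A, 3.36 for PRRC2B and -0.11 for PRRC2C. With the trend on GC3 removed, an alternative chosen after the data were seen, they were 5.45, 4.35 and 2.01. The gap between PRRC2A and PRRC2C, 5.51 on the log2 scale, was 2.70 and 3.44 in these settings. The gap between PRRC2B and PRRC2C, 5.44, was 3.47 and 2.34. Both trends were fitted to these same fold changes, so narrower gaps between members of unlike GC follow from the fit. Over all tested genes, coding or not, the rank correlation with the log2 fold change was 0.019 for summed exon length (20476 genes). For transcript GC it was 0.47 (19933 genes). With the trend on length removed, the log2 fold changes of PRRC2A, PRRC2B and PRRC2C were 4.62, 4.64 and -0.73.

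**Figure D3:**
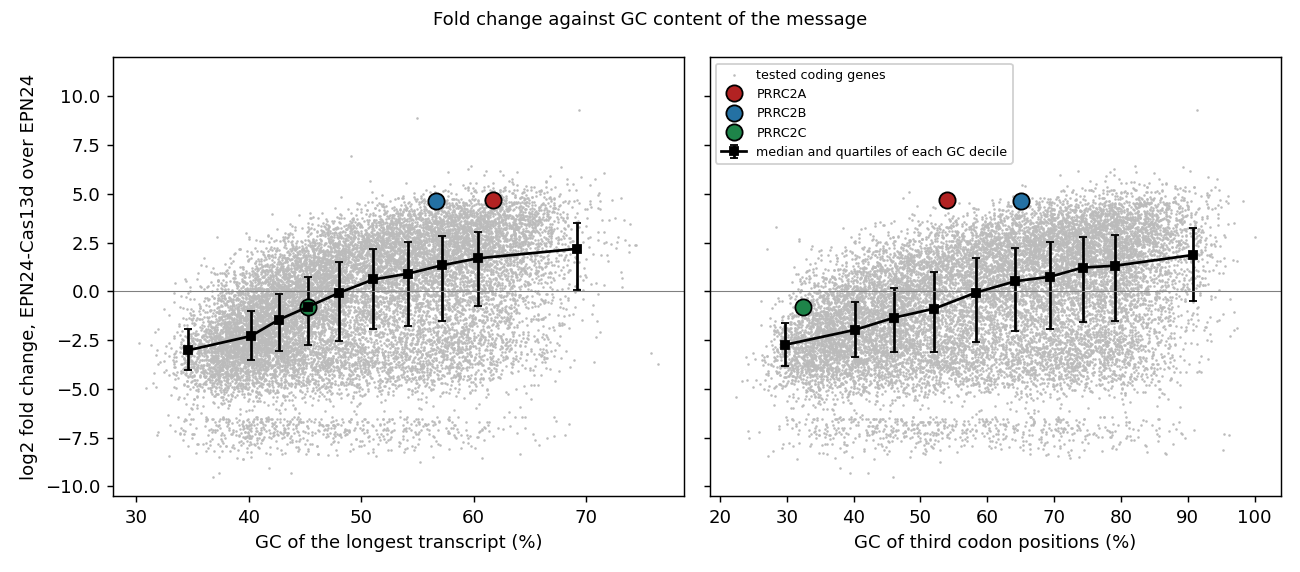
Log2 fold change of EPN24-Cas13d over EPN24 against GC content of the longest transcript (left) and GC3 (right) for tested coding genes in grey, with the median and quartiles of each decile of genes in black and the 3 members in colour. Genes with no count in EPN24-Cas13d form the band near the bottom at fitted values that are not bounds, while in the left panel PRRC2C lies on the median for its transcript GC, and PRRC2A and PRRC2B lie near the top of theirs.

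**Figure D4:**
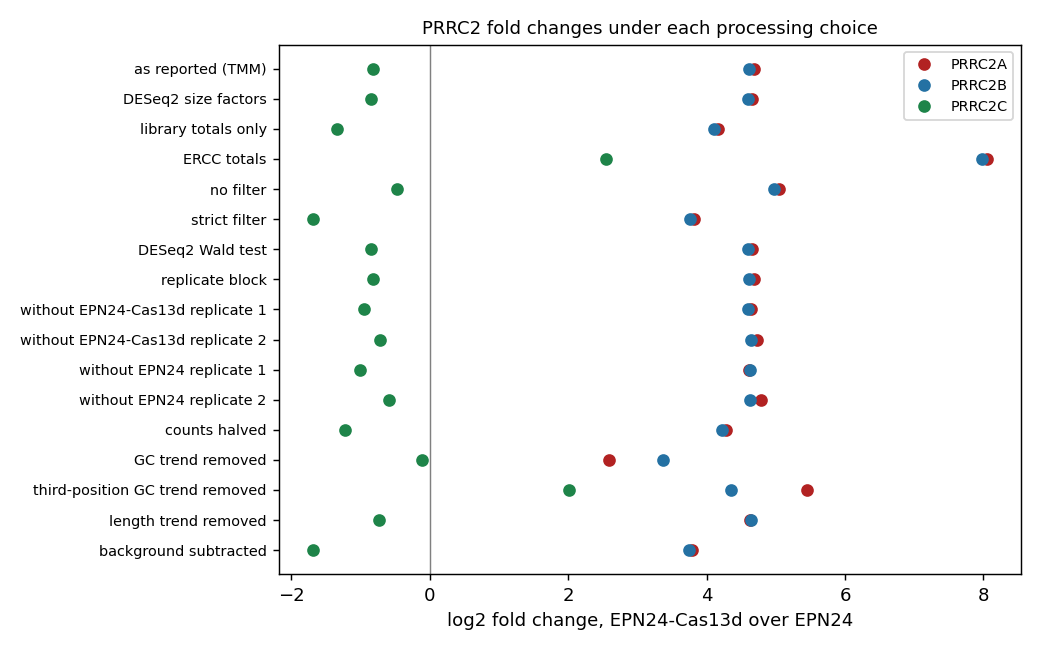
Log2 fold change of EPN24-Cas13d over EPN24 for each member as reported and under 16 other processing choices. PRRC2A and PRRC2B lie above PRRC2C in every row, between 2.59 and 8.05 against -1.69 to 2.55. The distance narrows in the rows with a GC trend removed, a trend that was fitted to these same fold changes.

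Messages of the initiation machinery that PRRC2 proteins work with were called in both directions, as were genes at large. Of 33 initiation factor and partner messages, all tested, 13 were called higher, 19 lower and 1 was not called, where 32.6% of all tested genes were higher and 48.2% lower. The list's median was -0.72 on the log2 scale, against -0.96 for all tested genes. EIF4G2, the scaffold that PRRC2 proteins bind, fell to 90.2 ± 2.98 CPM in EPN24-Cas13d, against 216 ± 21.4 CPM in EPN24 (SD, n = 2 each), a log2 fold change of -1.26. Its paralog EIF4G1, the main scaffold of the cap-binding complex, rose to 1706 ± 22.5 CPM in EPN24-Cas13d, against 217 ± 8.18 CPM in EPN24, a log2 fold change of 2.97. EIF4G1 and EIF4G2 thus stood at about the same CPM in EPN24 and apart in EPN24-Cas13d, as the PRRC2 messages did. Their transcripts held 40.5% GC in EIF4G2 and 57.4% in EIF4G1, and the part of GC in this was not tested. A further paralog, EIF4G3 (46.0% GC), measured 74.1 CPM in EPN24-Cas13d and 104 CPM in EPN24 (-0.49).

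Subunits of the same initiation complex also moved apart. EIF3A, the largest subunit of eIF3, fell to 116 ± 11.9 CPM in EPN24-Cas13d, against 310 ± 12.4 CPM in EPN24 (-1.41), while EIF3B, a core subunit, rose to 829 ± 58.3 CPM with Cas13d, against 70.0 ± 13.3 CPM without it (3.56). The largest increase in the list was that of EIF4H, which aids the helicase eIF4A (3.61). The most negative fold change was that of the cap-binding protein message EIF4E, with 4 and 0 counts in EPN24-Cas13d, against 45 and 46 in EPN24. With ERCC scaling 25 of the 33 were called higher and 1 lower, beside 58.4% higher and 2.33% lower over all tested genes. On that scale EIF4G2 (2.11) and EIF3A (1.95) turned to the higher side, while EIF4E was not called (-2.04).

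Of 28 tested stress granule messages 9 were called higher, 17 lower and 2 were not called, beside 32.6% higher and 48.2% lower over all tested genes. Their median log2 fold change was -0.70, and PABPC1, the cytosolic poly(A)-binding protein, is counted here and among the initiation messages. Of the granule nucleators, G3BP2 fell to 9.84 ± 0.320 CPM in EPN24-Cas13d, against 41.3 ± 0.207 CPM in EPN24 (-2.07), and G3BP1 measured 40.0 ± 0.267 CPM in EPN24-Cas13d and 54.3 ± 4.53 CPM in EPN24 (-0.44) and was not called. CAPRIN1, a binding partner of G3BP1, rose (1.32) and UBAP2L, another granule protein, fell (-0.62).

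A paralog pair in this list parted in the same way as PRRC2A and PRRC2C. ATXN2L, an ataxin-like granule protein, rose to 792 ± 4.16 CPM in EPN24-Cas13d, against 59.5 ± 2.18 CPM in EPN24 (3.73). ATXN2 fell to 28.4 ± 2.73 CPM in EPN24-Cas13d, against 47.0 ± 7.18 CPM in EPN24 (-0.73). The extremes of the list were LARP1, which binds messages of the translation machinery (4.44), and NUFIP2, a partner of FMRP (-3.59). With ERCC scaling 25 were called higher and 0 lower by edgeR, beside 58.4% higher and 2.33% lower over all tested genes. On that scale G3BP2 (1.29), ATXN2 (2.64) and UBAP2L (2.74) turned to the higher side, while NUFIP2 was not called (-0.25).

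Among 21 messages of m6A writers, erasers and readers, 6 were called higher, 11 lower and 4 were not called, with a median log2 fold change of -0.64. These counts lie near the shares over all tested genes, 32.6% higher and 48.2% lower. METTL3, the catalytic subunit of the writer, measured 13.5 ± 2.00 CPM in EPN24-Cas13d and 10.6 ± 2.40 CPM in EPN24 (0.35, not called), and METTL14, its partner, fell to 2 and 6 counts, against 42 and 44 counts in EPN24 (-4.27). The cytoplasmic readers differed among themselves: YTHDF1 rose (1.05), YTHDF3 fell (-2.65) and YTHDF2 was not called (0.059). The nuclear reader YTHDC1 fell (-2.93). IGF2BP1, a reader that stabilizes messages, had the largest increase, at 1202 ± 60.4 CPM in EPN24-Cas13d against 64.2 ± 5.09 CPM in EPN24 (4.23), and ZC3H13, a writer subunit, the most negative fold change, at 8.23 ± 0.602 CPM with Cas13d against 274 ± 9.28 CPM without it (-5.05). With ERCC scaling 15 were called higher and 1 lower, beside 58.4% higher and 2.33% lower over all tested genes. On that scale METTL14 (-0.95) and YTHDC1 (0.41) were not called, and YTHDF3 (0.70) was not called either.

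Of 14 tested neighbours of PRRC2A in the MHC class III region 7 were called higher, 6 lower and 1 was not called, beside 32.6% higher and 48.2% lower over all tested genes. Their median log2 fold change was -0.50, which is the same with NCR3 at its bound. BAG6, a quality-control chaperone gene next to PRRC2A, rose to 1101 ± 15.2 CPM in EPN24-Cas13d, against 71.8 ± 5.10 CPM in EPN24 (3.94). NFKBIL1, named for its likeness to inhibitors of NF-kappa-B, had the largest increase (4.57), DDX39B, a helicase of message export, rose slightly (0.41) and CSNK2B, the regulatory subunit of casein kinase II, fell (-1.41, turning to 1.95 with ERCC scaling). On the other side of PRRC2A, AIF1, a gene of myeloid cells, had 0 and 2 counts in EPN24-Cas13d, against 14 and 12 in EPN24. The natural killer receptor gene NCR3 had no count in EPN24-Cas13d, against 12 and 10 counts in EPN24. In TMM-scaled CPM this is at least 6.83-fold lower against a floor of 3 counts per library, if single counts are independent. The bound is smaller if they are not. No such bound was computed on the ERCC scale, where NCR3 was not called. With ERCC scaling 8 neighbours were called higher and 0 lower by edgeR, beside 58.4% higher and 2.33% lower over all tested genes. With either EPN24 library left out, fewer neighbours and fewer of all tested genes were called lower.

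Across the 4 lists the share of messages called higher moved with GC3. Of the 25 listed messages with GC3 at or above the median of tested coding genes (61.4%), 19 were called higher and 5 lower, or 76.0% and 20.0%. Of the 68 below it, 16 were called higher and 45 lower, or 23.5% and 66.2%. Among all tested coding genes the same shares were 53.5% higher and 27.3% lower at or above the median, and 20.1% higher and 59.0% lower below it. PRRC2A and PRRC2C both lie below this median and PRRC2B above it, so the members do not divide at this median as they do in fold change.

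**Figure D5:**
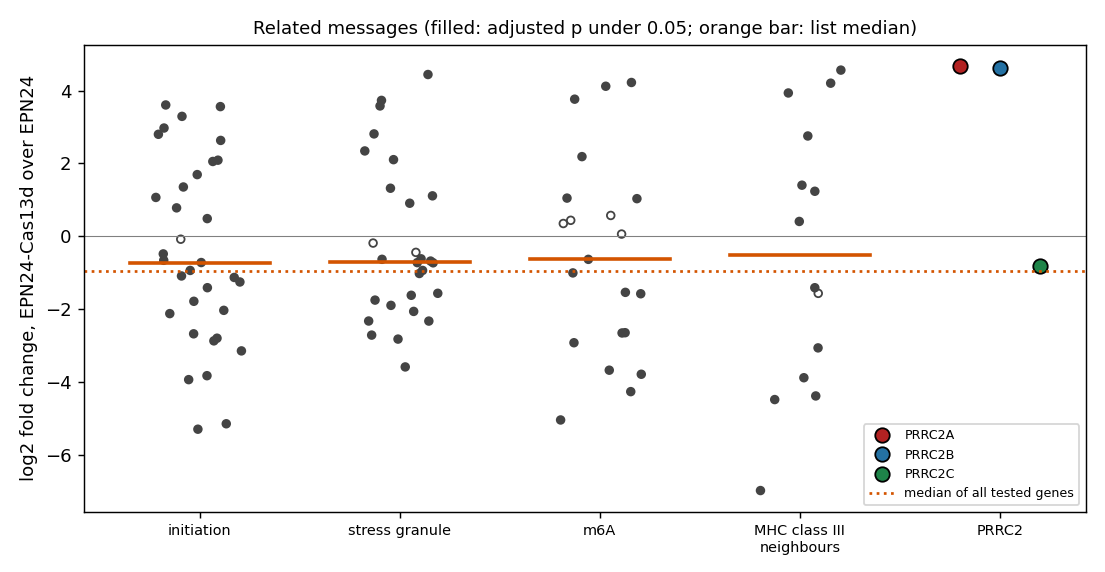
Log2 fold change of EPN24-Cas13d over EPN24 for each message of the 4 lists and for the 3 members, with filled points for called genes, orange bars for list medians and a dotted line for the median of all tested genes (-0.96). The list medians lie between -0.72 and -0.50, and PRRC2A and PRRC2B lie above every listed message while PRRC2C lies near the dotted line; the lowest neighbour, NCR3, is a fitted value and not a bound.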

How the data were processed

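Total RNA of supernatant was sequenced from 4 libraries. Per the submitters' processing notes, the tools were STAR 2.7.10a, featureCounts 2.0.1, FastQC 0.11.9, Trim Galore 0.6.7 and DESeq2 1.36.0, with the build GRCh38. No source used here gives the annotation release, the strand setting or the handling of multi-mapping reads. The authors deposited unnormalized expected counts per gene, of which 7.83% to 9.20% per library were not whole. The exon length in bp (another unit) came with these deposited counts. The authors also deposited their DESeq2 output, with p-values, a Wald score, log2 fold changes and a signal column of mean normalized counts. Of 61640 rows 5, the pieces of a broken row, were left out.

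For testing, counts were made whole and passed to edgeR 4.0.16 under R 4.3.3 (filterByExpr, TMM without ERCC rows, robust quasi-likelihood test, Benjamini-Hochberg threshold 0.05). Approximate standard errors are the absolute log2 fold change over the square root of F. GC content came from the longest GENCODE 29 transcript, found for 97.3% of tested genes by ID or symbol, and coding sequences were aligned with MAFFT 7.526. PRRC2B was matched by symbol, since its ID differs there. GC trends were removed with a loess of span 0.3, centred on the median trend. On simulated counts for 20476 genes, 200 of them changed in equal numbers up and down, 25.0% of 2-fold and 79.0% of 4-fold changes were recovered, with 6 false calls. In the real libraries 80.9% of genes were called, so these rates need not hold there.

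Groups came from sample titles. The members, lists and named genes (the members, rows overlapping them, set genes and both extremes of each list, and the 3 nearest patterns) were chosen with earlier results of these data known. Alternatives used other scalings, filters, DESeq2 1.42.0, a replicate block, left-out libraries, halved counts, trends removed and background subtracted.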

Additional observations from a re-analysis of the deposited data

How the results depend on the processing

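As a description of fold changes that chose the family, PRRC2A ranged from 2.59 to 8.05 and PRRC2B from 3.36 to 7.98 on the log2 scale over 16 alternatives. PRRC2C turned to 2.55 with ERCC totals and to 2.01 with the GC3 trend removed, and was at -0.11 with the transcript GC trend removed. Leaving out a library kept PRRC2A between 4.61 and 4.78, PRRC2B between 4.59 and 4.64 and PRRC2C between -1.01 and -0.59. Genes called numbered 16556 as reported, 9669 with a filter of 10 counts and 10 CPM in 2 libraries, and 10643 with the GC3 trend removed.

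With ERCC totals 25 initiation messages were called higher and 1 lower, 25 stress granule messages higher and 0 lower, 15 m6A messages higher and 1 lower, and 0 of PRRC2A's neighbours lower. Over all tested genes 58.4% were higher and 2.33% lower with ERCC totals. ERCC totals gave 96.2% of calls on the higher side, against 40.4% as reported. With the transcript GC trend removed, 12 initiation messages were lower, 16 stress granule messages higher and 7 lower, and 7 m6A messages lower. Of all 19933 genes in that setting, 5818 were higher and 7840 lower. With the GC3 trend removed, 7 initiation messages were lower, 19 stress granule messages higher and 3 lower, and 12 m6A messages higher and 4 lower. There 6096 of all 15286 genes were higher and 4547 lower. Of PRRC2A's neighbours 4 were higher and 2 lower with the filter of 10 counts and 10 CPM. Another 2 settings moved them: 4 were higher with background subtracted at the density of olfactory receptor genes, and 3 were lower with counts halved. Over all genes 4780 of 11735 were higher and 4889 lower with that filter. With background subtracted 5320 of 15698 genes were higher, and with counts halved 6970 of 15289 were lower. Fewer neighbours were called lower with either EPN24 library left out, as were fewer of all tested genes. Such fits leave 1 library in that group, so no counts are given for them. Beyond the fewer genes or samples tested, the cause of these changes was not tested.

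The libraries share replicate numbers, but same-numbered libraries did not deviate together (correlation -0.0041 over 20476 genes). With a replicate block 15041 genes were called, and the members were at 4.68, 4.62 and -0.82. Sparse genes, such as the snoRNAs and immune neighbours of PRRC2A, are limited by depth and may hold background counts, more so in EPN24.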
